A study of Mus musculus with 12 samples.

Results

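The 41 genes described here encode enzymes of glycolysis, of the entry of pyruvate into mitochondria and of the tricarboxylic acid (TCA) cycle. They were chosen by gene symbol from a fixed list, and all 41 were found in the deposited table of 43346 genes. All 41 also passed the filter on low counts, which left 22553 genes for testing. RNA was sequenced from mouse brain in 12 libraries, 4 in each of 3 groups. Old_CP2 mice, labelled C57BL/6;SJL-Tg for strain and aged 23 months, took CP2 at 25 mg/kg/day in drinking water with 0.1% PEG, from 9 months of age. CP2 is a small molecule that partly inhibits complex I of the mitochondrial respiratory chain. Old mice matched them in age and strain and drank water with the 0.1% PEG vehicle alone from 9 months. Young mice, labelled C57BL/6, were untreated and aged 3 months. Every sample is labelled wild type and has a title that starts with NTG, while the design text of the series speaks of CP2 given to APP/PS1 mice, a line with Alzheimer transgenes. Age, strain label and vehicle all differ between Old and Young, so their parts in that comparison cannot be told apart.

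Glycolysis splits glucose into pyruvate in the cytosol and is controlled chiefly at hexokinase, phosphofructokinase and pyruvate kinase. Lactate dehydrogenase converts pyruvate to lactate and back. In mitochondria the pyruvate dehydrogenase complex turns pyruvate into acetyl-CoA and is switched off by its kinases, and the TCA cycle oxidises acetyl-CoA and feeds electrons to the respiratory chain, first to complex I. In brain, neurons and astrocytes share the same pathway but use partly different isoenzymes, and pyruvate carboxylase and aldolase C are typical of astrocytes.

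The labels describe a brain cross-section that holds hippocampus and cortex, and markers of neurons and glia were abundant in all 12 libraries. Depth was 70548781 to 99449665 counts per library, of which the 41 genes took 1.08 to 1.22%. Libraries differed in tissue content as well as in age and treatment. Summed choroid plexus markers ran from 24.2 to 832 normalised CPM (a gene's share of the library's counts, scaled by the edgeR library factor) in Old_CP2, from 27.7 to 968 CPM in Old and from 1212 to 1954 CPM in Young, without overlap between either old group and Young. Midbrain and hindbrain markers summed to 18.3 to 70.9 CPM in Old_CP2, 26.7 to 89.98 CPM in Old and 3.16 to 4.35 CPM in Young. Striatal markers summed to 126 to 182 CPM in Old_CP2, 132 to 173 CPM in Old and 227 to 382 CPM in Young. Red blood cell markers summed to 228 to 443 CPM in Old_CP2, 81.6 to 148 CPM in Old and 59.2 to 91.0 CPM in Young. Of those 5 genes, 2 were called higher in Old_CP2 than in Old, beside 0.0266% of all tested genes. All 5 were called higher in Old_CP2 than in Young, beside 4.63% of all tested genes. Microglia markers summed to 362 to 439 CPM in Old_CP2, 379 to 393 CPM in Old and 264 to 342 CPM in Young, with both old groups above Young. Of those 8 genes, 3 were called higher in Old_CP2 and 2 in Old than in Young, beside 4.63% and 3.96% of all tested genes. Oligodendrocyte markers overlapped in sum, and 3 of 8 were called lower in Old_CP2 and 1 in Old than in Young, beside 2.94% and 2.74%. GABAergic neuron markers summed to 873 to 1018 CPM in Old_CP2, 953 to 1018 CPM in Old and 816 to 911 CPM in Young, with Old wholly above Young. Among markers matched in the deposited table, none of the 10 cell type and region lists held 1 at 0 in all libraries. Of the 7 striatal markers listed, 6 were matched. The parts of these differences in the results below were not tested except where a fit is named. The labels do not say that each library is a separate animal, so p-values measure the spread between these libraries.

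Levels per length spanned the pathway widely but were tight within groups. The deposited RPKM is a share of the library's reads, per coding length deposited for the gene. That length was 4133 bases for Gapdh and 5379 for Eno1, and the order of genes and the ratios per length below depend on it. Averaged over 12 libraries, Pkm (pyruvate kinase of muscle and brain) was highest at 446 RPKM. It was followed by Aldoa (aldolase A) at 380 RPKM and Mdh1 (cytosolic malate dehydrogenase) at 239 RPKM. Hk2, the hexokinase that is scarce in brain, was lowest at 0.590 RPKM, against 32.6 RPKM for Hk1, the main brain hexokinase. Among the pyruvate dehydrogenase kinases Pdk2 stood at 23.9 RPKM, Pdk3 at 9.66 RPKM and Pdk4 at 2.98 RPKM. The coefficient of variation of a gene within a group had a median of 4.59% and a range of 1.03 to 28.3%, and 36 of 41 genes stayed under 10% in all 3 groups. The highest was that of Hk2 in Old_CP2, the gene with the fewest reads per length.

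**Figure D1:**
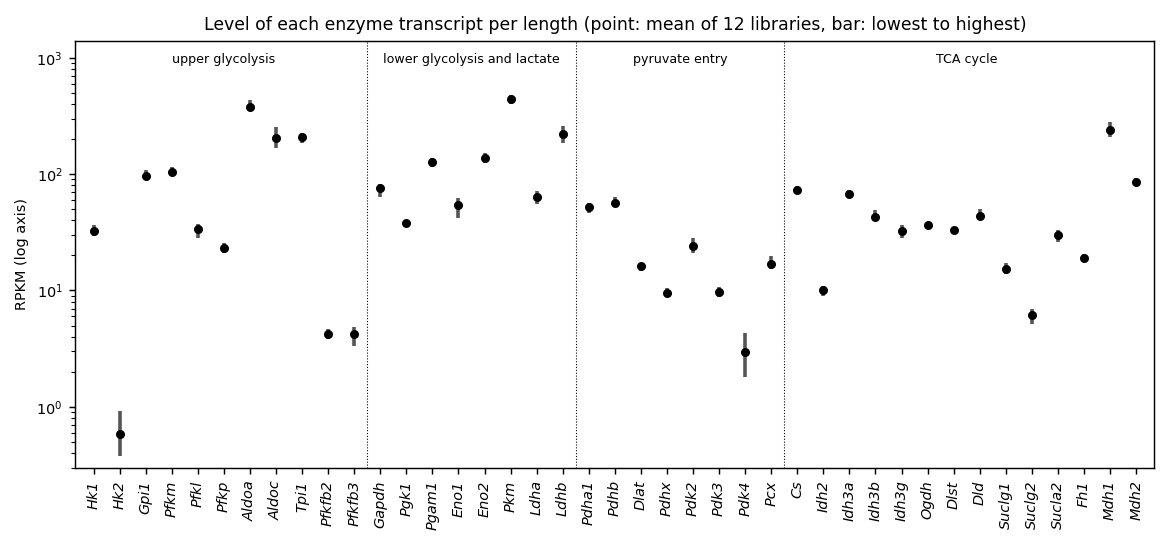
Deposited RPKM on a log axis for each of the 41 genes, ordered by step, with a point at the mean of 12 libraries and a bar from the lowest to the highest library. Pkm and Aldoa top the plot at 446 and 380 RPKM, Hk2 lies at 0.590 RPKM, and most bars are short beside the distance between genes.

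Summed over the steps, the 19 glycolysis genes came to 2377 ± 55 RPKM in Old_CP2, 2250 ± 83 RPKM in Old and 2148 ± 78.1 RPKM in Young (SD, n = 4 each). The 8 genes of pyruvate entry came to 192 ± 4.64, 189.9 ± 7.66 and 183 ± 8.96 RPKM in Old_CP2, Old and Young. The 14 TCA cycle genes came to 749.7 ± 31 RPKM in Old_CP2, 731 ± 36 RPKM in Old and 721 ± 38.4 RPKM in Young. The deposited RPKM rests on a library total of which the counts made up 82.9 to 85.4% in Old_CP2, 80.7 to 84.1% in Old and 79.9 to 82.8% in Young. That share moves with the groups, and on sums of normalised CPM the Old_CP2 to Old difference for glycolysis was 0.020 on the log2 scale, against 0.079 on RPKM. Normalised CPM also carry the edgeR library factor and are not divided by length. The parts of these in the shift were not tested. For the TCA cycle the direction turned, from 0.036 on RPKM to -0.027 on CPM in Old_CP2 against Old and from 0.057 to -0.0094 in Old_CP2 against Young. For pyruvate entry it turned in Old_CP2 against Old, from 0.013 to -0.041. The ratio of summed glycolysis to summed TCA cycle RPKM, which does not depend on that total, was 3.23, 3.31, 3.15 and 3.00 in Old_CP2 11, 12, 13 and 15. It was 2.94, 2.94, 3.23 and 3.22 in Old 7, 8, 9 and 10, and 3.07, 2.98, 2.96 and 2.92 in Young 1, 3, 4 and 5. Old_CP2 was high in 3 libraries and Old in 2, and the groups overlapped.

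The comparison of Old_CP2 with Old asks what the complex I inhibitor did to transcripts of the fuel pathway in old brain. EdgeR's quasi-likelihood test with Benjamini-Hochberg adjustment over all genes called 0 of 41 genes, against 0.0443% of all tested genes, 0.0266% higher and 0.0177% lower. At an unadjusted p under 0.05 it had 1 of 41, Aldoc, beside 6.31% of all genes, and DESeq2 and limma voom also called 0. On normalised CPM the 4 Old_CP2 libraries lay wholly above the 4 Old ones for 0 of 41 genes, beside 1.62% of all genes. They lay wholly below for 2 (Aldoc and Suclg2), beside 1.82% of all genes. The median change of the 41 genes was -0.0030 on the log2 scale, against 0.0017 for all tested genes. The 95% interval of the change lay within 25% in either direction for 40 of 41 genes and within 20% for 37 of 41, and the widest was that of Hk2, from -19.7 to 43.1%. By step and on normalised counts, 14 of 19 glycolysis genes had a positive estimate and 12 of 14 TCA cycle genes a negative one. None passed the test, and the median of the TCA cycle genes was -0.015 on the log2 scale. The split depends on the scaling, since the summed TCA cycle level was higher in Old_CP2 than in Old on RPKM. In these bulk libraries fewer cells of a type and less RNA per cell cannot be told apart.

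Old was set against Young to show how the pathway differs between these groups, which differ in age, strain label, vehicle and tissue content. The test called 3 of 41 genes higher (7.32%), all modest: Aldoc, Suclg2 and Pfkfb3, beside 3.96% of all tested genes. It called 0 lower, beside 2.74% of all genes. In either direction 6.7% of all genes were called, so the share of the 41 is near the background. At an unadjusted p under 0.05 there were 10 higher and 2 lower, 12 in all, beside 21.4% of all genes. The median was 0.032, against -0.0034 for all genes on the log2 scale. The 4 Old libraries lay wholly above the 4 Young ones for 7 of 41 genes and wholly below for 1, and over all tested genes this held for 6.94% and 6.32%. With the choroid plexus markers as a covariate all 3 calls ended (edgeR adjusted p = 0.0613 for Aldoc, 0.0897 for Suclg2 and 0.267 for Pfkfb3). Their log2 changes were then 0.31, 0.23 and 0.20, against 0.34, 0.23 and 0.28 without it. Choroid plexus markers did not overlap between either old group and Young. Here and below, that fit therefore cannot separate choroid plexus content from group, and a call that ended in it does not show where the change came from. DESeq2 called 5 genes higher (these 3, Pdk4 and Pkm). The shares of all genes above are those of edgeR and are no background for that count, and DESeq2's own share is not given here.

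Old_CP2 and Young were compared in the same fit. The test called 0 of 41, beside 7.57% of all tested genes, 4.63% higher and 2.94% lower. At an unadjusted p under 0.05 there were 9, beside 23.2% of all genes, and limma voom called 0 while DESeq2 called 4 higher (Aldoc, Pdk4, Pfkfb3 and Pkm). Old_CP2 lay wholly above Young for 5 of 41 genes and wholly below for 1, beside 8.42% and 7.07% of all genes. The median was 0.046 on the log2 scale, against -0.0076 for all genes. Both old groups are set against the same Young libraries, and Old also enters both of its comparisons, so these values are not independent of each other.

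**Figure D2:**
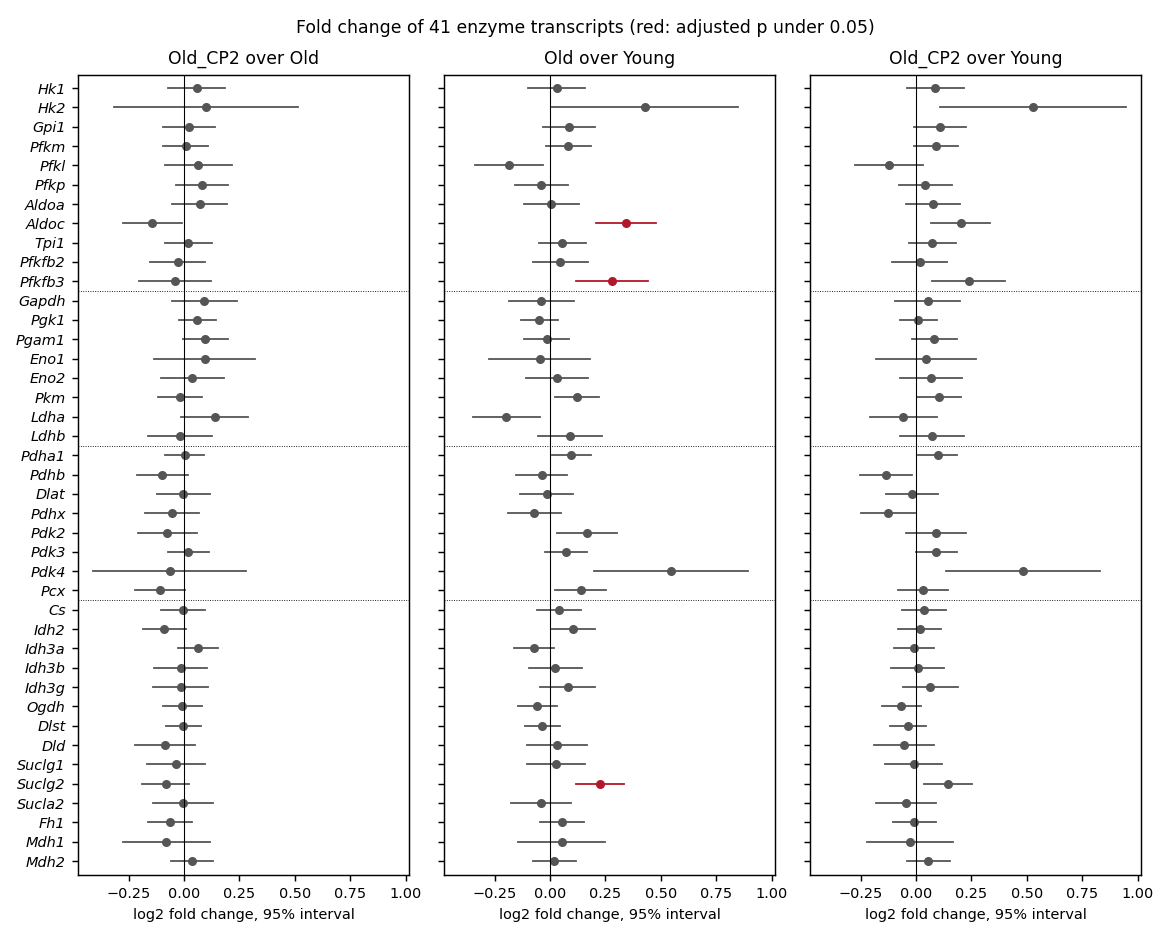
Log2 fold change (x axis) with its 95% interval for the 41 genes in pathway order, in panels for Old_CP2 over Old, Old over Young and Old_CP2 over Young, with dotted lines between steps and genes called by edgeR in red. Only Aldoc, Pfkfb3 and Suclg2 in the middle panel are red, and Hk2 and Pdk4 have the widest intervals.

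In upper glycolysis, from hexokinase to triose phosphate isomerase, 2 of 11 genes (18.2%) rose in Old against Young and 0 fell, beside 3.96% of all tested genes called higher and 2.74% lower. In the other comparisons 0 of 11 were called, beside 0.0443% of all tested genes in Old_CP2 against Old and 7.57% in Old_CP2 against Young. Both genes that rose have a core of the hypoxia response element, the letters ACGTG that the hypoxia-inducible factors bind, in the promoter. So do Hk2 and Pfkm of the same step, with 2 and 3 matches, and neither was called. The promoters of the 3 called genes are shown to let the presence and place of that motif be seen, with 250 bases before the RefSeq start and 50 after it (GRCm38.p6, RefSeq). Capitals mark ACGTG on either strand. They are Aldoc at chr11:78322823-78323122 on the plus strand, Pfkfb3 at chr2:11553880-11554179 on the minus strand and Suclg2 at chr6:95718797-95719096 on the minus strand.
Aldoc: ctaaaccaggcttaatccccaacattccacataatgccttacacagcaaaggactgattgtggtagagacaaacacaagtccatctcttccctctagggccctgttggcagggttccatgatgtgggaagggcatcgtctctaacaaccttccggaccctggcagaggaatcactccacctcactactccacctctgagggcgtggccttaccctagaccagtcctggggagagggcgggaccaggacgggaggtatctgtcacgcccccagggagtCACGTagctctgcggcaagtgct
Pfkfb3: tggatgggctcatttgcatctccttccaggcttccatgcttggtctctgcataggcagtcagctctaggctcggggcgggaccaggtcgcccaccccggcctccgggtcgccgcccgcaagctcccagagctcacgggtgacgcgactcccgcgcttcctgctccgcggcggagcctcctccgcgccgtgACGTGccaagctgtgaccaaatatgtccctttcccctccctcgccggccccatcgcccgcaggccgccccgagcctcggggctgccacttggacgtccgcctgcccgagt
Suclg2: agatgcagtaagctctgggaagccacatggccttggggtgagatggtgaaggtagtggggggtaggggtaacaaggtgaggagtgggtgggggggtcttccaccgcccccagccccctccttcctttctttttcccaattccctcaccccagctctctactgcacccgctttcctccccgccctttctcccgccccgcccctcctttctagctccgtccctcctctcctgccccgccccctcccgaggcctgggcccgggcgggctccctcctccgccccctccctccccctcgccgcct
The motif stood in the last 50 bases of the Aldoc window and shortly before the start in that of Pfkfb3, and these letters were not in the Suclg2 window. Across the pathway 15 of 40 genes with a RefSeq promoter (37.5%) held ACGTG, with 5 matches in Ldha. Of tested genes with a promoter chosen the same way 23.7% held it, and of all 32851 RefSeq promoters 19.6%. The half-site of the estrogen-related receptors, AAGGTCA on either strand, was found in 2 of 40 (Tpi1 and Eno1; 5.0%), against 3.45% of tested genes and 4.72% of all promoters. A match is a description of the letters and not of a bound site.

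Aldoc (ENSMUSG00000017390, chromosome 11, 78322968 to 78327781, mm10) encodes aldolase C, the aldolase of astrocytes and Purkinje cells. It had 822, 832, 760.5 and 850.4 CPM in Old_CP2 11, 12, 13 and 15, against 998, 856, 874 and 877 CPM in Old 7, 8, 9 and 10. It had 697, 727, 665 and 753 CPM in Young 1, 3, 4 and 5. On normalised CPM the 3 groups did not overlap: Young was lowest, Old_CP2 lay between, and Old was highest with Old 7 on top. Old_CP2 and Old nearly touched, and on the deposited RPKM they overlapped, at 197 to 224 RPKM in Old_CP2 and 205 to 254 RPKM in Old. Aldoc rose in Old against Young by 0.34 ± 0.063 SE on the log2 scale, or 26.9% (95% interval 15.6 to 39.3%; edgeR adjusted p = 0.00782). In Old_CP2 against Old the change was -0.14 ± 0.062 (95% interval -17.5 to -0.547%; edgeR adjusted p = 0.758), and -0.092 without Old 7. In Old_CP2 against Young it was 0.20 ± 0.062 (edgeR adjusted p = 0.0693).

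Summed levels of 10 astrocyte markers moved in the same order, at 4165 to 4706 CPM in Old_CP2, 4824 to 5353 CPM in Old and 3722 to 4314 CPM in Young. Of those 10 markers, 5 were called higher in Old and 1 in Old_CP2 than in Young, beside 3.96% and 4.63% of all tested genes. In Old_CP2 against Old 0 were called, beside 0.0443% of all tested genes. Relative to the mean log2 level of the 10 markers, Aldoc differed between Old and Young by -0.0055 on the log2 scale (exact permutation p = 0.914). The same difference was -0.12 for Suclg2 (exact permutation p = 0.0286, adjusted 0.343 over 12 such tests) and -0.065 for Pfkfb3 (exact permutation p = 0.286). On this scale Old and Young overlapped for Aldoc and Pfkfb3, and the Old libraries lay wholly below Young for Suclg2, which did not pass after adjustment. With so few libraries, 0.0286 is the smallest exact permutation p, and passing would need most of the 12 tests to reach it. In Old_CP2 against Old the differences relative to the markers were 0.052 for Aldoc (exact permutation p = 0.429) and 0.11 for Suclg2 (exact permutation p = 0.0571), opposite in sign to their changes in CPM and with overlapping groups. The markers themselves had a median log2 change of 0.28 in Old against Young and -0.22 in Old_CP2 against Old. The ratio was chosen after the values were seen and cannot tell astrocyte content from marker RNA per cell. The part of astrocyte content in these changes was not tested.

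Pfkfb3 (ENSMUSG00000026773, chromosome 2, 11471433 to 11554077, mm10) encodes an enzyme that makes fructose 2,6-bisphosphate, the activator of phosphofructokinase. It had 42.6, 41.1, 34.1 and 42.6 CPM in Old_CP2 11, 12, 13 and 15, against 41.1, 39.1, 42.8 and 42.1 CPM in Old 7, 8, 9 and 10. It had 31.8, 37.3, 35.3 and 31.5 CPM in Young 1, 3, 4 and 5. Old lay wholly above Young, while Old_CP2 13 fell among the Young libraries. Pfkfb3 rose in Old against Young by 0.28 ± 0.076 SE on the log2 scale (edgeR adjusted p = 0.0451). This call ended when Young 1, 4 or 5 or any single Old library was left out, with edgeR adjusted p of 0.0517 to 0.111. In Old_CP2 against Old the change was -0.041 ± 0.076 (edgeR adjusted p = 0.943), and in Old_CP2 against Young 0.24 ± 0.076 (edgeR adjusted p = 0.0763). Without Old_CP2 13 the change from Young was 0.31 and was called (edgeR adjusted p = 0.0156). Pfkfb2, a second gene of this kind, had 35.1 to 39.2 CPM in Old_CP2, 36.4 to 39.2 CPM in Old and 33.9 to 40.2 CPM in Young, and the 3 groups overlapped. Per length, Pfkfb3 over Pfkfb2 was 1.04 in Old_CP2, 1.05 in Old and 0.892 in Young (geometric means). Old lay wholly above Young (log2 difference 0.23, exact permutation p = 0.0286, adjusted 0.107 over 30 ratio tests), and Old_CP2 overlapped both.

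The phosphofructokinases, which commit sugar to glycolysis, are made of 3 kinds of subunit, and none of their genes was called in any comparison. Pfkl, the liver-type subunit, had 179, 191, 183 and 157 CPM in Old_CP2 11, 12, 13 and 15, against 149, 164, 181 and 184 CPM in Old 7, 8, 9 and 10. It had 188, 191, 193 and 199 CPM in Young 1, 3, 4 and 5. Old lay wholly below Young, and Old_CP2 overlapped both. The change in Old against Young was -0.19 ± 0.070 SE on the log2 scale and did not pass (edgeR adjusted p = 0.140). Pfkm, the muscle-type subunit and the most abundant per length, had 378, 406, 385 and 363 CPM in Old_CP2, against 366, 382, 375 and 402 CPM in Old. It had 364, 364, 351 and 359.6 CPM in Young, with Old wholly above Young and a change of 0.083 ± 0.046 (edgeR adjusted p = 0.330). Pfkp, the platelet-type subunit, had 287, 282, 275 and 241 CPM in Old_CP2, 242, 252, 265 and 266 CPM in Old, and 266, 263, 259 and 266 CPM in Young, so all 3 groups overlapped.

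Per length and within each library, Pfkl stood at 0.319, 0.316, 0.319 and 0.291 of Pfkm in Old_CP2. The ratio was 0.275, 0.290, 0.325 and 0.307 in Old and 0.347, 0.353, 0.371 and 0.373 in Young. Both old groups lay wholly below Young. The difference on the log2 scale was -0.27 in Old against Young and -0.21 in Old_CP2 against Young, each at p = 0.0286 in a two-sided exact permutation test, the smallest that 4 against 4 libraries can give. Over the 30 ratio tests the Benjamini-Hochberg adjusted value of these exact permutation tests was 0.107, so neither passed. Passing would need most of the 30 tests to reach the smallest p. A ratio that did not pass is thus not shown to be unchanged. Pfkp over Pfkm was 0.212 in Old, against 0.230 in Young (geometric means), with no overlap and the same exact permutation p of 0.0286, adjusted 0.107. In Old_CP2 it was 0.222 and overlapped Young.

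Aldoa, the aldolase found in most tissues, had 1347, 1412, 1273 and 1219 CPM in Old_CP2, 1181, 1232, 1297 and 1292 CPM in Old, and 1236, 1209, 1251 and 1282 CPM in Young. The groups overlapped, and the changes ran from 0.0061 (Old against Young) to 0.077 (Old_CP2 against Young) on the log2 scale. Per length, Aldoc over Aldoa was 0.525 in Old_CP2, 0.608 in Old and 0.481 in Young (geometric means, n = 4). Old lay wholly above Young (exact permutation p = 0.0286, adjusted 0.107), and Old_CP2 overlapped both.

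Among the rest of upper glycolysis, Hk1, Hk2, Gpi1 (glucose-6-phosphate isomerase) and Tpi1 (triose phosphate isomerase) were not called in any comparison. Hk2 had the largest estimates, 0.43 in Old and 0.53 in Old_CP2 against Young on the log2 scale, with levels of 4.86 ± 1.38 CPM in Old_CP2, 4.54 ± 0.777 CPM in Old and 3.37 ± 0.568 CPM in Young (SD, n = 4 each). Its libraries overlapped in every comparison, and its smallest edgeR adjusted p was 0.123.

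**Figure D3:**
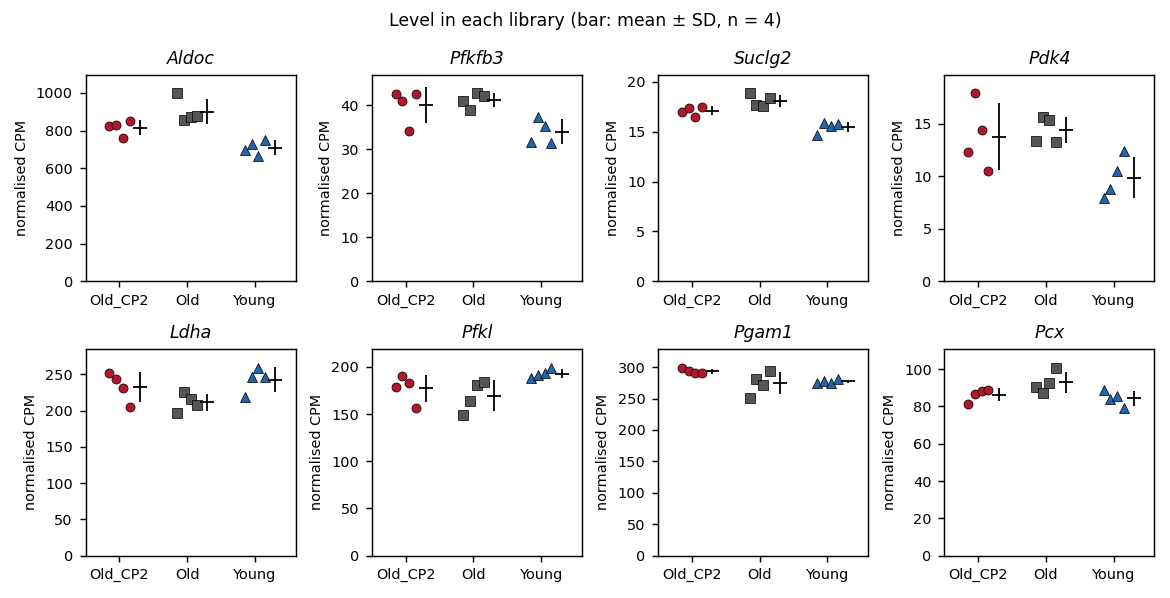
Normalised CPM (y axis from 0) of 8 genes in every library, with Old_CP2 as red circles, Old as grey squares and Young as blue triangles, and a bar at the mean ± SD of each group (n = 4). On this scale Aldoc and Suclg2 separate all 3 groups with Old highest, while on RPKM Old_CP2 and Old overlap for both. Pfkfb3 has Old_CP2 13 down among the Young libraries, and Pfkl is lower in Old than in Young.

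In lower glycolysis and lactate metabolism, from Gapdh to lactate dehydrogenase, edgeR called 0 of 8 genes in any of the 3 comparisons. Of all tested genes it called 0.0443% in Old_CP2 against Old, 6.7% in Old against Young and 7.57% in Old_CP2 against Young. With 8 genes, 0 calls do not set this step apart from those shares. Ldha, the subunit of lactate dehydrogenase that favours making lactate, had 253, 243, 231 and 205 CPM in Old_CP2 11, 12, 13 and 15. It had 197, 225, 216 and 208 CPM in Old 7, 8, 9 and 10, and 218, 246, 259 and 246 CPM in Young 1, 3, 4 and 5. Old was low, but Old 8 lay above Young 1, and Old_CP2 overlapped both. The change was 0.14 ± 0.070 SE in Old_CP2 against Old (95% interval -0.823 to 22.3%; edgeR adjusted p = 0.802) and -0.20 ± 0.070 in Old against Young (edgeR adjusted p = 0.115) on the log2 scale.

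Ldhb, the subunit that favours the use of lactate, had 421, 409.7, 409 and 476 CPM in Old_CP2, 452, 438, 429.6 and 417 CPM in Old, and 424, 357, 419 and 431 CPM in Young. The groups overlapped, with Young 3 lowest and Old_CP2 15 highest. Per length, Ldhb was 3.17, 3.20, 3.37 and 4.40 times Ldha in Old_CP2, against 4.36, 3.70, 3.78 and 3.80 times in Old. In Young it was 3.69, 2.75, 3.07 and 3.32 times. Old lay wholly above Young (log2 difference 0.29, exact permutation p = 0.0286, adjusted 0.107), and 3 of 4 Old_CP2 libraries lay below all of Old, with Old_CP2 15 above them (log2 difference -0.16, exact permutation p = 0.286, adjusted 0.449).

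Pgam1, phosphoglycerate mutase, had 299, 294, 290.5 and 290.4 CPM in Old_CP2, 251, 281, 272 and 294 CPM in Old, and 275, 278, 275 and 281 CPM in Young. Old_CP2 was tight and lay wholly above Young, and Old was spread over both. The change in Old_CP2 against Old was 0.097 ± 0.047 SE on the log2 scale (edgeR adjusted p = 0.796), or 0.054 without Old 7, and in Old_CP2 against Young 0.082 ± 0.047 (edgeR adjusted p = 0.319). Reads given to the pseudogene Pgam1-ps2 were 10.3 to 11.3% of those given to Pgam1, so its level is uncertain by that order. Pkm stood at 1433 ± 33.8 CPM in Old_CP2, 1450.2 ± 25.9 CPM in Old and 1334 ± 36.5 CPM in Young. Both old groups lay wholly above Young (edgeR adjusted p = 0.143 for Old and 0.199 for Old_CP2). DESeq2 called Pkm in both (adjusted p = 0.00576 for Old and 0.0220 for Old_CP2).

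Eno1, the enolase found in most tissues, needs a caution on its reads and was looked at after its values were seen. In 9 libraries the reads given to Eno1b and Gm4735, which are copies of Eno1, made up 4.35 to 4.86% of the sum of the 3 genes. In Old_CP2 13, Old 9 and Young 3 they made up 18.3, 17.8 and 17.2%. Eno1 (chromosome 4, 150236721 to 150248879, mm10) was at 299, 316 and 278 CPM in these 3 libraries, against 377 to 396 CPM in the other Old_CP2 libraries, 341 to 360.2 CPM in the other Old libraries and 364 to 386 CPM in the other Young libraries. Each of the 3 was the lowest of its group. The transcript of Gm4735 (chromosome 2, 80837141 to 80838442, mm10) matches that of Eno1 at 99.6% of 1302 bases, with 5 mismatches, in GENCODE vM21. Within 101 bases, the length of a read, the pair differed at 2 bases at most and at a median of 0. Eno1b was 98.9% identical in its closer transcript. Added together, the 3 genes had 366 to 416 CPM in Old_CP2, 357 to 384 CPM in Old and 336 to 404 CPM in Young.

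Neither reading gave a call for Eno1. Alone it changed by 0.093 ± 0.11 SE in Old_CP2 against Old and -0.047 ± 0.11 in Old against Young on the log2 scale (edgeR adjusted p = 0.907 and 0.852). Summed with its copies the change in Old_CP2 against Old was 0.092 (edgeR adjusted p = 0.844). Fbxo44 and Spsb1, which lie 2.08 and 0.340 Mb from Eno1 on chromosome 4 and were picked after their values were seen, were also lowest in their group in the same 3 libraries. Fbxo44, a ubiquitin ligase subunit, had 82.6, 87.5 and 76.9 CPM there, against 88.9 to 103 CPM in the other 9 libraries. The source of this pattern was not tested.

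**Figure D4:**
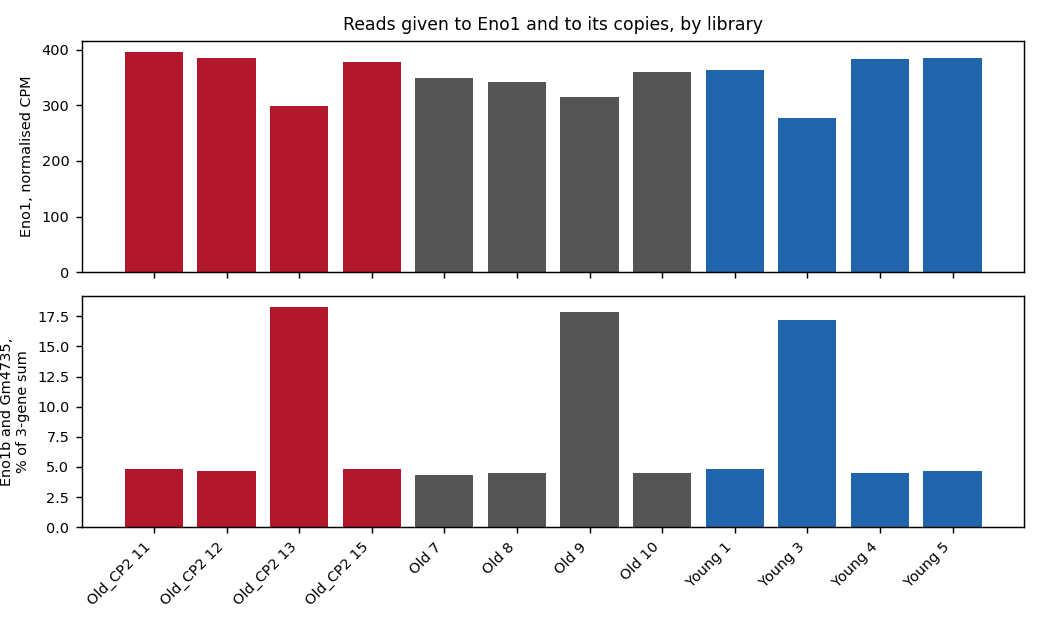
Upper bars give Eno1 in normalised CPM and lower bars the reads of Eno1b and Gm4735 as a percent of the 3-gene sum, for each library, with Old_CP2 in red, Old in grey and Young in blue. Old_CP2 13, Old 9 and Young 3 stand out at 18.3, 17.8 and 17.2%, and each is the lowest of its group for Eno1.

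At pyruvate entry edgeR called 0 of 8 genes in any comparison. Shares of all tested genes were 0.0443% in Old_CP2 against Old, 6.7% in Old against Young and 7.57% in Old_CP2 against Young. The 8 genes are 4 subunits of the pyruvate dehydrogenase complex, 3 of its kinases and pyruvate carboxylase. Pdk4, the kinase raised by fasting in many tissues, had 12.3, 17.9, 14.4 and 10.5 CPM in Old_CP2 11, 12, 13 and 15. It had 13.4, 15.6, 15.4 and 13.3 CPM in Old 7, 8, 9 and 10, and 7.88, 8.75, 10.5 and 12.4 CPM in Young 1, 3, 4 and 5. Old lay wholly above Young, and Old_CP2 spread from among the Young libraries to above all of Old. The change was 0.55 ± 0.16 SE in Old against Young (95% interval 14.7 to 85.8%; edgeR adjusted p = 0.0617) and 0.48 ± 0.16 in Old_CP2 against Young (edgeR adjusted p = 0.0904) on the log2 scale. DESeq2 called both (adjusted p = 0.0110 and 0.0291). EdgeR called Pdk4 in Old against Young without Young 5 (0.68, adjusted p = 0.0369) and in a fit of these groups alone (0.55, adjusted p = 0.0398), and in Old_CP2 against Young without Young 5 or Old_CP2 15 (adjusted p = 0.0488 and 0.0355). Against the 10 astrocyte markers the Old to Young difference of Pdk4 was 0.22 on the log2 scale (exact permutation p = 0.229). In Old_CP2 against Old the change was -0.065 ± 0.16 (95% interval -24.7 to 21.5%; edgeR adjusted p = 0.960).

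Pcx, pyruvate carboxylase, makes oxaloacetate from pyruvate and refills the TCA cycle. It had 81.1, 86.6, 88.3 and 88.6 CPM in Old_CP2, 90.7, 87.4, 92.5 and 101 CPM in Old, and 89.0, 84.0, 85.4 and 79.0 CPM in Young. Old was highest, and the groups overlapped. The change was -0.11 ± 0.053 SE in Old_CP2 against Old (edgeR adjusted p = 0.796) and 0.14 ± 0.053 in Old against Young (edgeR adjusted p = 0.142) on the log2 scale. Among the complex subunits, Pdha1 (the alpha subunit of its first enzyme) was at 244 ± 4.84 CPM in Old_CP2, 243 ± 7.88 CPM in Old and 228 ± 8.08 CPM in Young. Its partner Pdhb was at 96.1 ± 2.88 CPM in Old_CP2, 103 ± 5.78 CPM in Old and 106 ± 6.91 CPM in Young. Estimates of these partners against Young thus had opposite signs in both old groups, with edgeR adjusted p of 0.150 to 0.757.

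In the TCA cycle 1 of 14 genes (7.14%) rose in Old against Young and 0 fell, beside 3.96% and 2.74% of all tested genes. None of the 14 was called in Old_CP2 against Old or in Old_CP2 against Young, beside 0.0443% and 7.57% of all tested genes. Suclg2 (ENSMUSG00000061838, chromosome 6, 95474134 to 95718837, mm10) encodes the GTP-forming beta subunit of succinyl-CoA ligase. It had 17.0, 17.4, 16.5 and 17.5 CPM in Old_CP2 11, 12, 13 and 15, against 18.8, 17.6, 17.6 and 18.4 CPM in Old 7, 8, 9 and 10. It had 14.7, 15.8, 15.6 and 15.8 CPM in Young 1, 3, 4 and 5. As for Aldoc, the 3 groups did not overlap on normalised CPM, with Old highest and Young lowest, though Old_CP2 and Old nearly touched. On the deposited RPKM Old_CP2 (6.13 to 6.60 RPKM) and Old (6.05 to 6.87 RPKM) overlapped. Suclg2 rose in Old against Young by 0.23 ± 0.050 SE on the log2 scale, or 17.0% (95% interval 8.55 to 26.1%; edgeR adjusted p = 0.0190). Without Old_CP2 13, Old 9 and Young 3 together the change was 0.26 and was not called (edgeR adjusted p = 0.0751). In Old_CP2 against Old the change was -0.083 ± 0.050 (edgeR adjusted p = 0.826), and in Old_CP2 against Young 0.14 ± 0.050 (edgeR adjusted p = 0.104).

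Sucla2, the ATP-forming beta subunit, had 144, 134, 139 and 153 CPM in Old_CP2, 151, 154, 129.96 and 136 CPM in Old, and 142, 141, 147 and 158 CPM in Young, and the groups overlapped. Per length, Suclg2 stood at 0.207, 0.227, 0.208 and 0.200 of Sucla2 in Old_CP2, against 0.218, 0.201, 0.236 and 0.236 in Old. In Young it was 0.182, 0.197, 0.186 and 0.175. Both old groups lay wholly above Young, with log2 differences of 0.27 for Old and 0.19 for Old_CP2, each at the smallest exact permutation p of 0.0286, adjusted 0.107. The other 12 TCA cycle genes changed by between -0.089 (Idh2, mitochondrial isocitrate dehydrogenase) and 0.065 (Idh3a) in Old_CP2 against Old on the log2 scale, none called. Citrate synthase (Cs), which opens the cycle, was at 250.6 ± 8.26 CPM in Old_CP2, 251 ± 14.6 CPM in Old and 244 ± 3.35 CPM in Young.

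**Figure D5:**
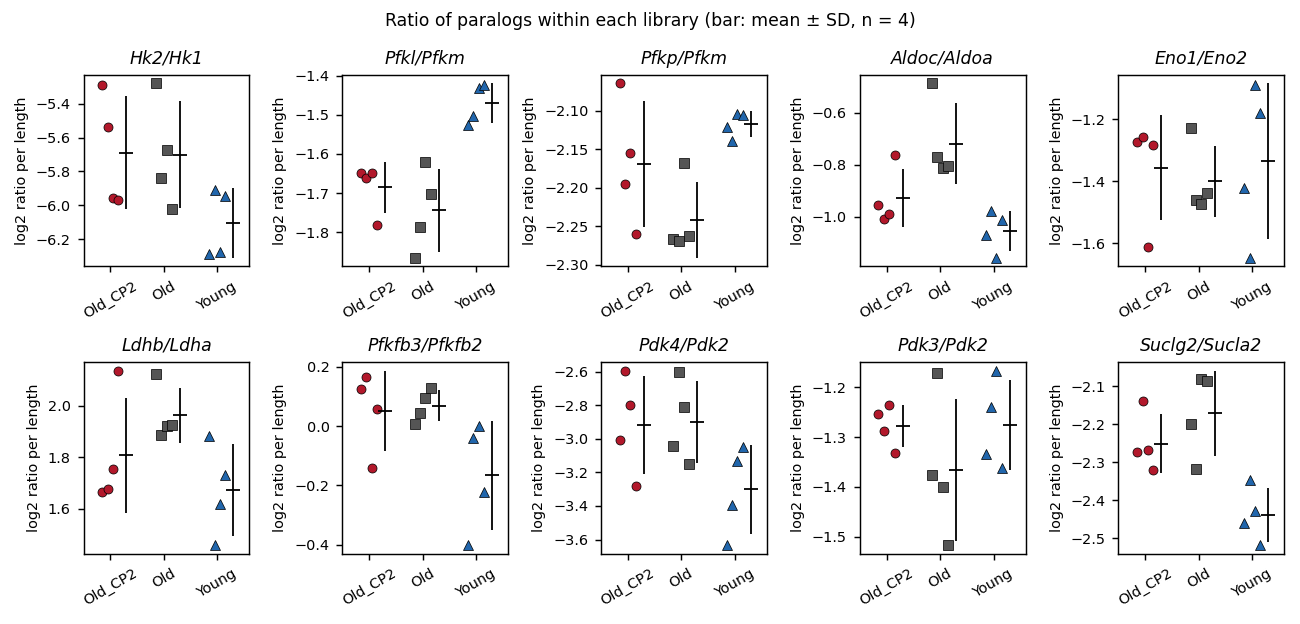
Log2 ratio per length of 10 pairs of related genes in each library, with Old_CP2 as red circles, Old as grey squares and Young as blue triangles, and a bar at the mean ± SD (n = 4). Young lies above both old groups for Pfkl over Pfkm and below both for Suclg2 over Sucla2, and for Ldhb over Ldha Old_CP2 15 lies apart from the other Old_CP2 libraries.

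The wider pathway was read from a list of 43 further genes, of which 42 were matched in the table and 41 tested. In Old_CP2 against Old 0 of 41 were called, and 0 at an unadjusted p under 0.05, beside 0.0443% and 6.31% of all tested genes. In Old against Young 4 rose and 1 fell (12.2%), beside 6.7% of all tested genes called in either direction. In Old_CP2 against Young 3 rose and 1 fell (9.76%), beside 7.57% of all genes. Pdp1, the main phosphatase that switches the pyruvate dehydrogenase complex back on, had 103, 144, 160.1 and 110.1 CPM in Old_CP2 11, 12, 13 and 15. It had 97.4, 146, 119.7 and 137 CPM in Old 7, 8, 9 and 10, and 235, 189.7, 211 and 222 CPM in Young 1, 3, 4 and 5. Both old groups lay wholly below Young. Pdp1 fell by 0.78 on the log2 scale in Old against Young (SE 0.14, edgeR adjusted p = 0.00851) and by 0.73 in Old_CP2 against Young (SE 0.14, edgeR adjusted p = 0.00968). With the choroid plexus markers as a covariate neither change was called, at -0.54 in Old against Young (edgeR adjusted p = 0.0512) and -0.46 in Old_CP2 against Young (edgeR adjusted p = 0.0902). Summed striatal markers were lower in the same libraries, with 5 of 6 called lower in Old than in Young, beside 2.74% of all tested genes. Their part in the change of Pdp1 was not tested.

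Sdha, the catalytic subunit of succinate dehydrogenase, rose in both old groups. It had 381, 384, 373 and 369 CPM in Old_CP2, against 383, 385, 376 and 392 CPM in Old. It had 325, 338, 333 and 336 CPM in Young. Both old groups lay wholly above Young, and Old_CP2 overlapped Old. The change was 0.21 ± 0.037 SE in Old against Young (edgeR adjusted p = 0.00763) and 0.18 ± 0.037 in Old_CP2 against Young (edgeR adjusted p = 0.0128) on the log2 scale. The call in Old_CP2 against Young ended, with a change of 0.20, under the choroid plexus covariate (edgeR adjusted p = 0.0629) and without Old_CP2 13, Old 9 and Young 3 (0.0592).

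Ogdhl, a brain-enriched relative of the oxoglutarate dehydrogenase subunit Ogdh, rose to 126 ± 4.02 CPM in Old_CP2 and 134 ± 6.91 CPM in Old, against 108 ± 6.17 CPM in Young (edgeR adjusted p = 0.0201 and 0.00484). Ogdh itself was at 237 ± 3.05 CPM in Old_CP2, 239 ± 10.8 CPM in Old and 248 ± 5.63 CPM in Young and was not called. The call of Ogdhl in Old_CP2 against Young ended with the covariate (log2 change 0.20, edgeR adjusted p = 0.154), without Young 4 (0.20, adjusted p = 0.0551) and without the 3 libraries named for Sdha (0.26, adjusted p = 0.0608). Pck2, mitochondrial phosphoenolpyruvate carboxykinase, rose to 26.0 ± 1.15 CPM in Old_CP2 and 26.4 ± 1.88 CPM in Old, against 21.4 ± 1.63 CPM in Young (edgeR adjusted p = 0.0236 and 0.0185). With the covariate neither call of Pck2 held, at log2 changes of 0.26 in Old_CP2 and 0.29 in Old against Young (edgeR adjusted p = 0.149 and 0.102). Without the 3 libraries neither held at 0.30 and 0.32 (edgeR adjusted p = 0.0853 and 0.0895), and without Young 4 that in Old_CP2 ended (edgeR adjusted p = 0.0563). Pdpr, the regulatory subunit of the pyruvate dehydrogenase phosphatase, rose in Old against Young by 0.17 ± 0.043 SE on the log2 scale (edgeR adjusted p = 0.0347). Its call ended without Young 1, 3 or 5 or Old 7 or 10, with edgeR adjusted p of 0.0522 to 0.0741. It also ended with the covariate, without a filter on low counts, in the fit of Old and Young alone and without the 3 libraries (edgeR adjusted p of 0.0623 to 0.0988).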

How the data were processed

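Per the labels' protocols, total RNA of frozen brain cross-sections was made into libraries with a kit that does not mark strand. Reads were 101 bases long and paired, as the design text of the series states. Per the submitters' processing notes, bcl2fastq, TopHat, Subread and featureCounts were used on mm10, with versions and annotation not given in the sources used here. Per the file headers, the deposited table holds a gene count and an RPKM value per library, both made by the authors. The counts are whole numbers with no scaling, and 0 mitochondrial-genome genes had counts. All columns had a known sample.

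Genes were kept by filterByExpr and scaled by TMM. Counts of all 12 libraries were fitted with edgeR 4.0.16 (R 4.3.3), with group as the only term, and tested with the two-sided quasi-likelihood F test. Benjamini-Hochberg adjustment covered all 22553 genes, with calls at adjusted p under 0.05. Adjusted p-values named edgeR come from this test. CPM are normalised, ± after a mean is SD of 4 libraries, and SE comes from the F statistic. Deposited RPKM served for levels between genes. Ratios of 10 gene pairs used two-sided exact permutation over libraries, adjusted over 30 tests. Alternatives were DESeq2 1.42.0, limma 3.58.1 voom, other scalings and filters, a choroid plexus covariate, fits of 2 groups and leaving out each library. Leaving out Young 3, Old 9 and Old_CP2 13, summing the Eno1 copies and the ratio to astrocyte markers were chosen after seeing the data. The edgeR step was tested on simulated data.

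The 41 genes, the further lists, ratios and motifs were chosen with earlier results of these data known. Genes given by library were those called, the 4 of smallest p in each comparison and both genes of a ratio at the smallest permutation p, and Eno1 was added after its values were seen. Promoters come from RefSeq and, where a gene has several, the one nearest to the deposited gene start was used.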

Additional observations from a re-analysis of the deposited data

Results flagged for a closer look

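Among 123 sets of 4 libraries (41 genes in 3 groups), 6 held a library far from the other 3, or 4.88%, where chance gives about 5%. Aldoc was at 998 CPM in Old 7, against 856 to 877 CPM in the other Old libraries, and without Old 7 it was still called higher in Old than in Young. Eno2, the neuronal enolase, was at 837 CPM in Old_CP2 11, against 799 to 805 CPM in the other Old_CP2 libraries. Ldhb was at 357 CPM in Young 3, against 419 to 431 CPM in the other Young libraries. Ogdh was at 255 CPM in Old 10, against 231 to 235 CPM in the other Old libraries. Dld, the shared dihydrolipoamide dehydrogenase subunit, was at 126 CPM in Young 5, against 115 to 116 CPM in the other Young libraries. Mdh2, mitochondrial malate dehydrogenase, was at 208 CPM in Old 7, against 219 to 221 CPM in the other Old libraries.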

How the results depend on the processing

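No paired analysis was possible because the groups share no replicate numbers. For Old_CP2 against Old, 0 of the 41 genes were called under all 8 alternative fits, in each of 8 fits that left out a library and in the fit without Young 3, Old 9 and Old_CP2 13. For Old against Young the count of 3 became 5 with DESeq2, 4 in the fit of these groups alone (Pdk4 added), 2 without the 3 libraries (Suclg2 lost) and 0 with the choroid plexus covariate, and was 2 to 3 when a library was left out. With the covariate the log2 changes were 0.31 for Aldoc, 0.23 for Suclg2 and 0.20 for Pfkfb3, against 0.34, 0.23 and 0.28 in the fit as reported. The median of the 41 genes there was 0.031 to 0.060 on the log2 scale when a library was left out. Relative to astrocyte markers, the Old to Young difference was -0.0055 for Aldoc, -0.12 for Suclg2 and -0.065 for Pfkfb3 on the log2 scale. For Old_CP2 against Young the count of 0 became 4 with DESeq2, 0 to 1 when a library was left out (Pdk4 without Young 5 or Old_CP2 15, Pfkfb3 without Old_CP2 13) and 1 without Young 3, Old 9 and Old_CP2 13. Of the further pathway genes, the 5 called in Old against Young became 2 with the covariate and 3 without those 3 libraries, and the 4 in Old_CP2 against Young became 0 with the covariate, 1 without those 3 libraries and 2 to 5 when a library was left out, with 2 reached without Young 4. The changes from Young in Old_CP2 with the covariate were 0.20 for Sdha, 0.26 for Pck2, 0.20 for Ogdhl and -0.46 for Pdp1, against 0.18, 0.28, 0.22 and -0.73 in the fit as reported. As sums of normalised CPM rather than RPKM, the Old_CP2 to Old difference was 0.020 for glycolysis and -0.041 for pyruvate entry, and the Old_CP2 to Young difference for glycolysis was 0.083 on the log2 scale. Shares of all genes called under these alternatives are not given here, so their counts have no background beside them. The causes were not tested, apart from the smaller number of samples where libraries were left out. Choroid plexus content does not overlap between the old and Young libraries, so that covariate and age cannot be told apart. With 4 libraries a group, changes of a few percent were not detectable.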

Other observations

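Within the old groups, Old_CP2 15 and Old 7 had the least of several glycolysis transcripts and the most Mdh1, a pattern picked after the values were seen. Old_CP2 15 was the lowest of its group for 11 and the highest for 3 of 19 glycolysis genes, and the lowest for 2 and the highest for 8 of 14 TCA cycle genes. It had the least Hk1 (319.8 CPM), Pfkl (157 CPM) and Ldha (205 CPM) of its group and the most Mdh1 (807 CPM) and Ldhb (476 CPM). Old 7 was the lowest of its group for 9 and the highest for 5 of 19 glycolysis genes (Pkm and Aldoc among the highest), and the lowest for 4 and the highest for 5 of 14 TCA cycle genes. It had the least Hk1 (305 CPM), Pfkl (149 CPM) and Ldha (197 CPM) and the most Mdh1 (863 CPM) and Ldhb (452 CPM). Mdh2, mitochondrial malate dehydrogenase, did not follow Mdh1, at 222 CPM in Old_CP2 15, within its group, and 208 CPM in Old 7, the lowest of its group. Summed glycolysis RPKM was not lowest in either library, at 2383 in Old_CP2 15 and 2284 in Old 7. Both also had the least summed glutamatergic neuron marker in their group, at 3506 CPM in Old_CP2 15 and 2918 CPM in Old 7, and the most oligodendrocyte marker, at 6581 and 7602 CPM. Their midbrain and hindbrain markers were the highest of their groups too, at 70.9 CPM in Old_CP2 15 and 89.98 CPM in Old 7. The part of tissue content in the enzyme levels was not tested.

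Mdh1 had 708, 681, 713 and 807 CPM in Old_CP2, 863, 849, 675 and 685 CPM in Old, and 692, 702, 764 and 806 CPM in Young. The Old libraries fell into a high and a low pair, and the groups overlapped.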
